A study of Mus musculus with 6 samples.

Results

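The genes of 8 macrophage lineage transcription factors were followed in marrow RNA of wild-type and P2rx7 knockout mice: Spi1, Spic, Irf8, Cebpb, Maf, Nr1h3, Klf4 and Id3. They were taken from the deposited table by symbol, and all 8 were among its 55291 genes. Each also passed the filter on low counts, which left 15478 genes for the test. Femoral marrow of mice aged 6 to 8 weeks was flushed out and sequenced as bulk RNA. Each library was taken as 1 mouse: 3 wild types (WT 1, WT 2, WT 3) and 3 knockouts (A, B, C). Values of single libraries are given in that order, and FPKM are fragments scaled to exon length and library size. No treatment is named for either group. The labels do not give the strain, the sex or the design of the knockout allele, so the cell types that lost P2rx7 are not stated. P2rx7 encodes an ATP-gated cation channel that macrophages express, and the study asked what its loss does to bone.

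Macrophages are specified by a small set of transcription factors that act in layers. Spi1 encodes PU.1, an ETS-family factor that opens myeloid enhancers and is needed to make macrophages at all; Cebpb and Irf8 act with it in monocytes and their progeny. A second layer shapes resident macrophages of given tissues: Maf helps to hold macrophages in a mature non-dividing state, Spic drives the iron-recycling macrophages of spleen and marrow, Nr1h3 encodes the oxysterol receptor LXR-alpha, and Id3, an inhibitor of E-proteins, is needed by liver macrophages. Klf4 acts in monocyte differentiation and in endothelium and smooth muscle. Several of these genes are also active outside macrophages, and in bulk RNA a change in the number of cells of a type and a change in RNA per cell cannot be told apart.

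The libraries held 18716704 to 23575652 counts. P2rx7 itself fell from 10.3 ± 0.232 FPKM in wild types to 6.41 ± 0.195 FPKM in knockouts (SD, n = 3; adjusted p = 0.0109, edgeR) and was still detected in every knockout. Genes that mark macrophages were abundant: C1qa, a chain of complement C1q, lay between 1471 and 1724 FPKM, and Csf1r, the receptor for the macrophage growth factor M-CSF, between 207 and 259 FPKM. The globin genes of red cells and the T cell genes Cd3e and Cd3g were nearly absent. The beta-globin gene Hbb-bs had at most 5 counts in a library and the T cell gene Cd3e had 0 in each of the 6 libraries. Col1a1, a chain of type I collagen, lay between 1165 and 1620 FPKM. The neutrophil gene S100a9 was present at 15.7 to 152 FPKM. Globin genes, Cd3e and Cd3g were thus at or near 0 in RNA labelled as flushed marrow. Other genes of the red cell and T cell marker lists were present. Tfrc had 2200 to 2754 counts per library, Epor 47 to 103, Cd4 127 to 249 and Il7r 73 to 141. The libraries fell into 2 sets by traces of other tissues. Gh, the growth hormone gene, had 23 to 82 counts in 4 libraries, the wild types and knockout A, and was at 0 in the other 2. Alb, the albumin gene, was at 0 in those 4 and had 46 counts in knockout B and 36 in knockout C. Results that moved are also given with the library set as a covariate or among the 4 libraries with Gh counts; in both, knockout A alone stands against the 3 wild types. P2rx7 kept its size in these fits (-0.64 and -0.64) with adjusted p-values of 0.112 and 0.516, and without knockout B or C its adjusted p was 0.0763 and 0.0973.

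None of the 8 factors passed the test for a difference between genotypes. Nr1h3 had the largest difference among them, 1.43-fold higher in knockouts, and it alone had no overlap between the genotypes. Id3 was 1.24-fold higher and Klf4 was at 0.862 of the wild-type level, with 1 library of overlap in each. Spi1 and Maf, the lineage factor and the maturation factor, had fitted knockout levels of 1.02 and 1.02 times the wild type. At an adjusted p below 0.05, 0 of the 8 were called by edgeR's quasi-likelihood test. Beside this, 0.103% of all tested genes were called (0.0581% higher and 0.0452% lower in knockouts). DESeq2 called 0 of the 8, beside 496 of 15478 genes. Limma on log2(FPKM + 1) also called 0 of the 8, beside 10 of 15478 genes. At an unadjusted p below 0.05 there were 3 of 8 in edgeR, beside 16.6% of all tested genes. This count moved when 1 mouse was left out. It was 1 without knockout B or C, beside 1468 of 15915 and 1772 of 15864 genes. It was 2 without WT 1 (2317 of 15891 genes) and 3 without knockout A (2632 of 15670). It was 4 without WT 2 or WT 3, beside 1653 of 15648 and 3422 of 15647 genes. The genotypes did not overlap in 1 of 8, beside 21.9% of all tested genes; that gene was higher in knockouts, beside 11.5% of all genes apart in that direction and 10.4% in the other.

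**Figure D1:**
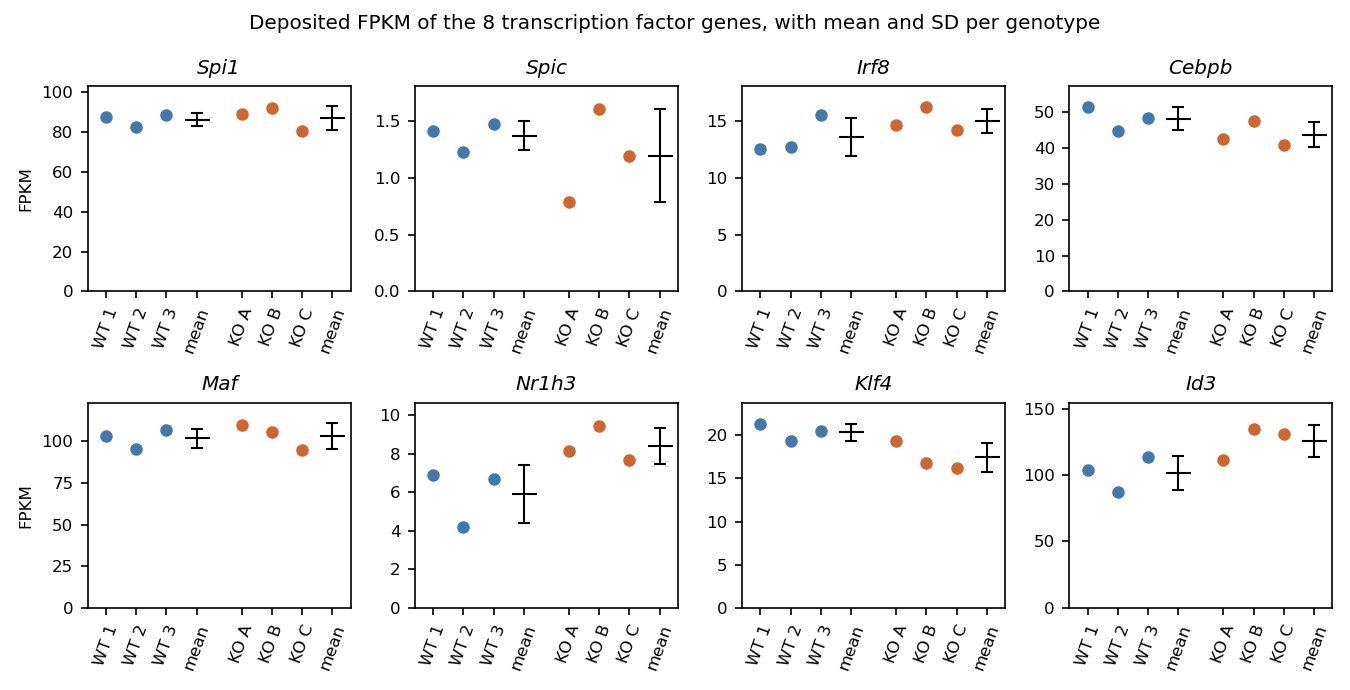
Deposited FPKM (vertical axes, each starting at 0) of the 8 genes in each of the 6 libraries, with wild types in blue, knockouts (KO) in orange, and the mean and SD of each genotype in black. The 3 knockouts lie above the 3 wild types for Nr1h3, knockout A is the lowest library for Spic, and the genotypes overlap in the other panels.

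RefSeq promoter windows (GRCm38.p6, 250 bases before to 50 after the start site) were matched by symbol for 6 of the 8 genes: Nr1h3, Cebpb, Klf4, Id3, Irf8 and Spic. Those of the 3 genes with an unadjusted p below 0.05 are shown. Nr1h3 has 2 overlapping windows, and the one shown is the further downstream. The Nr1h3 window is chr2:91194986-91195285 on the minus strand, that of Id3 is chr4:136143572-136143871 on the plus strand and that of Klf4 is chr4:55532426-55532725 on the minus strand. Each is written 5′ to 3′ on the gene's strand, and capitals mark the core GAGGAA that PU.1 and other ETS factors favour (TTCCTC on the other strand) and the core CACCC that Klf factors favour (GGGTG on the other strand).
Nr1h3: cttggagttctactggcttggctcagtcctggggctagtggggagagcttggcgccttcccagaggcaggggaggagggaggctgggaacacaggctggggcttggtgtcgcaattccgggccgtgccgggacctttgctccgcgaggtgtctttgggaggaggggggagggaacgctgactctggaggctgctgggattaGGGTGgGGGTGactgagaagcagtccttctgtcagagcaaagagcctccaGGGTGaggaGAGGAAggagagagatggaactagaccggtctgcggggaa
Id3: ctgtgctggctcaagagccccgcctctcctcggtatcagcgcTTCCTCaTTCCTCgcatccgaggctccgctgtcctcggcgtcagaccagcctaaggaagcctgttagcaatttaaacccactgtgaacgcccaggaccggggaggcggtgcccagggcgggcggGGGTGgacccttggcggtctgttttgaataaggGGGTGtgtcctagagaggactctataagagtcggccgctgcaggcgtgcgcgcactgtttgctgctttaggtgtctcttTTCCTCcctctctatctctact
Klf4: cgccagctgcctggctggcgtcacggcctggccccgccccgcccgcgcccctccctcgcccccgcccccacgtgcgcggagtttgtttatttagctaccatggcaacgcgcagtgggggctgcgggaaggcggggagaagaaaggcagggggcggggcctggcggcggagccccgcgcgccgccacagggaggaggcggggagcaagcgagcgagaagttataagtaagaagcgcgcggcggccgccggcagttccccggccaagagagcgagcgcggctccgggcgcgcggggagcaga
The Nr1h3 window shown held 1 GAGGAA, which starts 10 bases after the start site, and 3 CACCC cores, and its other window held 0 and 3. The Id3 window held 3 and 2, and the Klf4 window held 0 of either. Of all 32851 RefSeq windows of 300 bases, 28.3% held a GAGGAA and 57.5% a CACCC on either strand. Cores of the other factors were searched on both strands too, with overlaps between motifs allowed: TGCTGA for Maf, the repeat bound by IRF factors, TTGCNNAA for C/EBP factors, AGGTCA for nuclear receptors, CANNTG for the E-proteins that Id3 inhibits, and TATAAA for the TATA box. In the 3 windows shown, CANNTG had 2 matches in Klf4 and 0 in the others, where 72.3% of all windows held it, and the other 5 had 0. These matches describe letters and are not binding sites.

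PU.1 is the factor on which the lineage rests, and of the 8 genes Spi1 varied least between the 6 mice. Spi1 (chromosome 2, 91082390 to 91115756, plus strand) was at 87.7, 82.5 and 88.6 FPKM in the wild types and at 89.0, 92.1 and 80.5 FPKM in the knockouts. The highest and the lowest library were both knockouts, so the genotypes overlapped fully. Its log2 fold change was 0.02 ± 0.06 (SE, adjusted p = 0.893, edgeR), and the 95% interval of the knockout level was 0.919 to 1.12 of the wild-type level. Among the relatives of PU.1, Spib, a factor of B cells and plasmacytoid dendritic cells, had 3 to 30 counts per library. Spi1 supplied 98.2 ± 0.309% of the summed FPKM of Spi1, Spib and Spic in wild types and 98.5 ± 0.521% in knockouts (SD, n = 3).

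Spic, the factor of iron-recycling macrophages, was the lowest of the 8 and the least precisely measured. The gene (chromosome 10, 88674772 to 88685015, minus strand) had 109, 109 and 131 counts in the wild types and 67, 117 and 92 counts in the knockouts. Its level was 1.41, 1.23 and 1.47 FPKM in the wild types and 0.788, 1.60 and 1.19 FPKM in the knockouts. The knockouts thus held both the highest and the lowest library. The exact 95% Poisson interval, which covers counting error only, began at 0.610 FPKM for knockout A and ended below that of knockout B, which ran from 1.33 to 1.92 FPKM, so these 2 mice of one genotype differed by more than counting error. The log2 fold change was -0.20 ± 0.24 (SE, adjusted p = 0.729, edgeR), with a 95% interval from 0.593 to 1.28 of the wild-type level. Without knockout A it was 0.04, without knockout B -0.47, and with the library set as a covariate, where knockout A alone stands for the genotype, it was -0.80 (adjusted p = 0.837).

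Irf8 and Cebpb, which act beside PU.1 in monocytes, had small differences of opposite sign. Irf8 (chromosome 8, 120736358 to 120756694, plus strand) favours monocytes and dendritic cells over neutrophils. It was at 12.6, 12.7 and 15.5 FPKM in the wild types and at 14.6, 16.2 and 14.2 FPKM in the knockouts. WT 1 and 2 lay below the other 4 libraries, and WT 3 lay among the knockouts. Between genotypes the log2 fold change was 0.15 ± 0.09 (SE, adjusted p = 0.439, edgeR), and without WT 3 it was 0.26. Irf5, a relative that acts downstream of Toll-like receptors, was the highest IRF gene examined at 34.7 ± 1.21 FPKM in wild types and 38.2 ± 2.79 FPKM in knockouts (SD, n = 3; adjusted p = 0.303, edgeR). Irf4 had 30 to 48 counts per library.

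Cebpb (chromosome 2, 167688915 to 167690418, plus strand), a factor of inflammatory gene induction in macrophages and of early fat cell differentiation, was at 51.4, 44.8 and 48.4 FPKM in the wild types and at 42.5, 47.6 and 40.9 FPKM in the knockouts. Knockout B lay among the wild types and the other 2 knockouts lay below them. Between genotypes Cebpb differed by -0.14 ± 0.08 on the log2 scale (SE, adjusted p = 0.420, edgeR). Its relative Cebpa, which is shared by granulocyte, macrophage and fat cell differentiation, was higher in level and had a log2 fold change of the opposite sign, 0.31 ± 0.14 (adjusted p = 0.304, edgeR). Of the summed FPKM of Cebpa, Cebpb, Cebpd and Cebpe, Cebpb took 26.2, 31.0 and 27.1% in the wild types and 21.5, 23.3 and 22.9% in the knockouts. These shares did not overlap between genotypes, and the difference in share was not tested. Cebpb shares 312 of its 1504 exon bases with Tmem189 on the other strand, which had 1295 to 1607 counts per library, and how reads in that stretch were assigned is not given in the sources used here.

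Maf varied little, with 1.16-fold between the highest and the lowest mouse. The gene (chromosome 8, 115682942 to 115707794, minus strand) was at 103, 95.5 and 107 FPKM in the wild types and at 110, 105 and 94.8 FPKM in the knockouts. With 15680 to 20359 counts per library it had the most counts of the 8. The genotypes overlapped, with knockouts again at both ends. For Maf the log2 fold change was 0.03 ± 0.07 (SE, adjusted p = 0.887, edgeR), a 95% interval of 0.905 to 1.15 of the wild-type level.

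Nr1h3 had the widest gap between genotypes. The gene (chromosome 2, 91184061 to 91202834, minus strand) had 348, 244 and 389 counts in the wild types and 453, 451 and 387 counts in the knockouts. Its level was 6.89, 4.19 and 6.69 FPKM in the wild types and 8.13, 9.44 and 7.67 FPKM in the knockouts. Every knockout lay above every wild type, and WT 2 lay far below the other 2 wild types. The log2 fold change was 0.51 ± 0.18 (SE), with a 95% interval of 1.07 to 1.91 of the wild-type level, and the adjusted p was 0.234 (edgeR). An exact two-sided permutation test on log2 FPKM gave p = 0.1, the smallest that 3 against 3 allows. Without WT 2 the log2 fold change was 0.31 (adjusted p = 0.302), and with the library set as a covariate it was 0.45 (adjusted p = 0.849). When all 30301 genes with at least 1 count were tested the adjusted p was 0.0295 (edgeR), in a setting that called 970 genes.

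The other LXR gene and Madd, a gene beside Nr1h3, showed no such gap. Nr1h2, which encodes the widely expressed LXR-beta, was at 31.6 ± 0.773 FPKM in wild types and 33.0 ± 1.45 FPKM in knockouts (SD, n = 3; log2 fold change 0.07, adjusted p = 0.505, edgeR). Nr1h3 supplied 18.2, 11.8 and 17.1% of the summed LXR FPKM in the wild types and 19.4, 21.8 and 19.7% in the knockouts. Spi1 and Nr1h3 lie 68.3 kb apart on chromosome 2 with 2 genes between them, of which Madd was tested and had a log2 fold change of 0.04 (adjusted p = 0.730). Of 19 marker sums whose library order was compared with that of Nr1h3, those of adipocytes and macrophages matched it. The summed level of the adipocyte markers was 155 to 251 FPKM in wild types and 323 to 390 FPKM in knockouts, with no overlap. Its order had WT 2 lowest and knockout B highest, with knockouts A and B close at 389 and 390 FPKM. Over the 6 libraries that sum held Cd36 at 83.4 to 127 FPKM, Lpl at 26.9 to 96.6 FPKM and Adipoq at 8.51 to 81.1 FPKM. It held less of Plin1 and Cidec, at 0.808 to 10.2 and 1.30 to 11.7 FPKM. Of its 8 markers, 7 were tested, 0 passed (adjusted p = 0.0994 to 0.297, edgeR) and 7 of 7 were higher in every knockout than in every wild type, beside 11.5% of all tested genes. The summed level of the macrophage markers had that order too, at 5706 to 5792 FPKM in wild types and 5915 to 6611 FPKM in knockouts. Most of that sum came from the 3 C1q genes, each of which overlapped between genotypes. Of the 14 tested macrophage markers 2 were called, Vsig4 and Cd163, both lower, beside 0.103% of all tested genes called. The genotypes were apart in 4 higher and 3 lower, beside 11.5% and 10.4% of all tested genes. The part of either cell type in the Nr1h3 difference was not tested.

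Id3, the E-protein inhibitor, had the highest mean level of the 8. The gene (chromosome 4, 136143497 to 136145755, plus strand) was at 104, 87.6 and 113 FPKM in the wild types and at 112, 134 and 131 FPKM in the knockouts. Knockouts B and C lay above all other libraries, and knockout A lay just below WT 3. For Id3 the log2 fold change was 0.31 ± 0.11 (SE, adjusted p = 0.228, edgeR), a 95% interval of 1.05 to 1.48 of the wild-type level. The 2 high libraries are the 2 without Gh counts: with the library set as a covariate the log2 fold change was 0.13 (adjusted p = 0.898), and among the 4 libraries with Gh counts it was 0.13 (adjusted p = 0.969). When all 30301 genes with at least 1 count were tested the adjusted p was 0.0367 (edgeR), in a setting that called 970 genes. Of its relatives, Id1 and Id4 also had positive log2 fold changes, 0.26 and 0.82, and Id2 had -0.13, at adjusted p-values of 0.235 to 0.383 (edgeR). Id4 was at 34.4, 13.1 and 29.3 FPKM in the wild types and at 45.7, 46.6 and 42.5 FPKM in the knockouts, and WT 2 was again the lowest library. WT 2 was lowest too in the summed level of the marrow stromal markers. That sum was 320 to 616 FPKM in wild types and 771 to 885 FPKM in knockouts. Cxcl12 alone was at 164 to 594 FPKM over the 6 libraries. Of the 10 markers 0 passed (edgeR) and 10 had positive log2 fold changes. The genotypes were apart in 5, all higher in knockouts, beside 11.5% of all tested genes. The part of stromal cells in the Id gene values was not tested.

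Klf4 lay lower in 2 of the 3 knockouts than in any wild type. The gene (chromosome 4, 55527143 to 55532466, minus strand) was at 21.3, 19.3 and 20.5 FPKM in the wild types and at 19.3, 16.8 and 16.2 FPKM in the knockouts. Knockout A lay just above WT 2, and the other 2 knockouts lay below all wild types. The log2 fold change was -0.21 ± 0.07 (SE, adjusted p = 0.229, edgeR), a 95% interval of 0.765 to 0.970 of the wild-type level. As for Id3, the 2 libraries that stood off were those without Gh counts. The log2 fold change was -0.08 with the library set as a covariate (adjusted p = 0.900) and -0.08 among the 4 libraries with Gh counts (adjusted p = 0.969). Its relatives Klf2, a factor of quiescent endothelium and lymphocytes, and Klf6 were higher in level, with log2 fold changes of -0.11 and -0.03. The summed level of the smooth muscle markers, mostly Acta2, was 1733 to 2521 FPKM in wild types and 1358 to 1806 FPKM in knockouts, and that of the monocyte markers was 1304 to 1508 and 1239 to 1283 FPKM. More of the monocyte sum came from Fn1, the gene of the matrix protein fibronectin, than from all other markers together, and of the 11 markers 0 passed, 4 had positive and 7 had negative log2 fold changes. Their part in the Klf4 values was not tested.

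**Figure D2:**
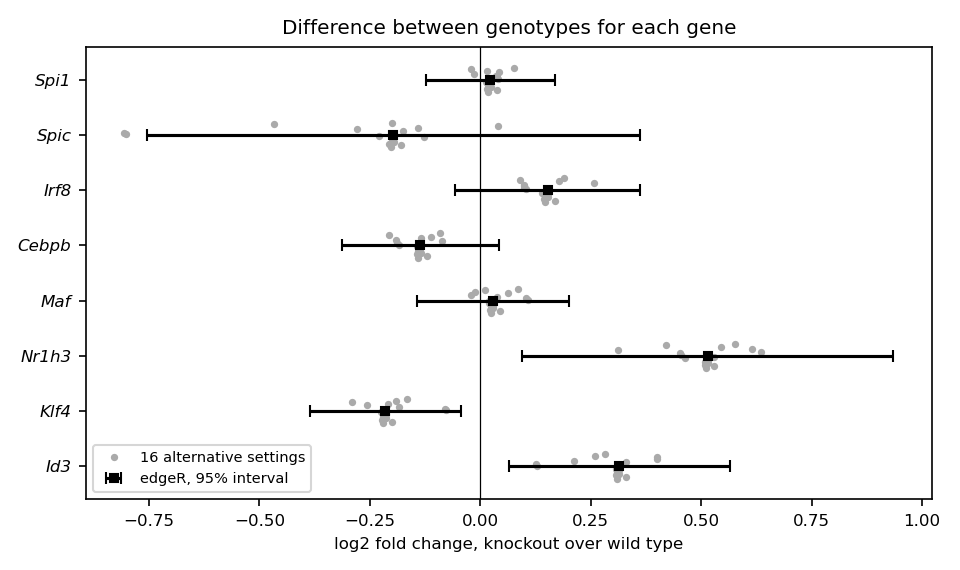
Log2 fold change of knockout over wild type for each gene (horizontal axis), with the edgeR estimate and its 95% interval in black and the 16 alternative settings as grey points. Intervals are for single genes without adjustment; those of Nr1h3, Id3 and Klf4 lie to one side of 0, and Spic has the widest interval and the widest scatter of settings, from -0.81 to 0.04.

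On the FPKM scale, which corrects for length, the order of the 8 levels was almost the same in every mouse. In 5 of 6 libraries it was Id3, Maf, Spi1, Cebpb, Klf4, Irf8, Nr1h3 and Spic from high to low. In WT 2 Maf exceeded Id3. The ranges of Id3 and Maf over the 6 libraries overlapped, as did those of Klf4 and Irf8, and the other neighbours in the order were apart in all 6 libraries. Id3, Maf and Spi1 lay above 97.2% or more of tested genes in mean FPKM, Cebpb above 93.9% and Spic above 24.7%. The highest library exceeded the lowest 1.14-fold for Spi1, 1.16-fold for Maf, 1.26-fold for Cebpb, 1.29-fold for Irf8, 1.31-fold for Klf4, 1.53-fold for Id3, 2.04-fold for Spic and 2.25-fold for Nr1h3.

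**Figure D3:**
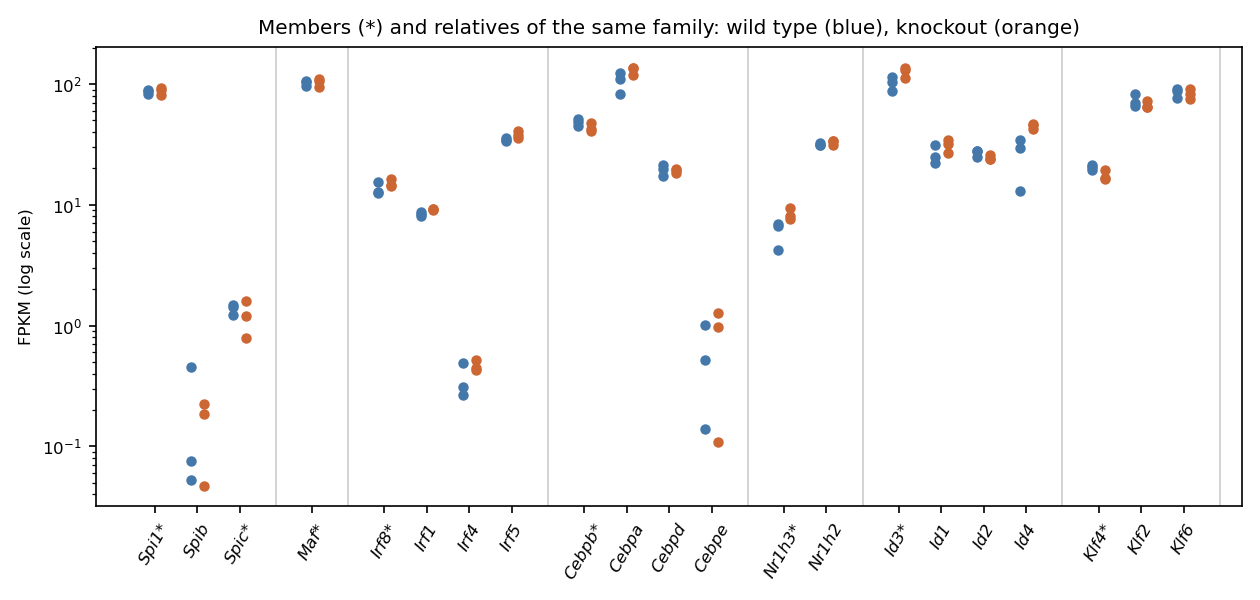
FPKM on a log axis of the 8 members (starred) and of relatives from the same families, 1 point per library, with wild types in blue and knockouts in orange. Spi1 exceeds Spib and Spic in every library, Nr1h2 exceeds Nr1h3 in every library, and Id4 has WT 2 far below the other 5 libraries at 13.1 FPKM.

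Genes linked to these factors were then read from the same fit, in 10 lists that together name 146 genes, of which 134 were tested. Of these, 3 of 134 were lower in knockouts and 0 were higher at an adjusted p below 0.05 (edgeR), beside 0.103% of all tested genes called, and 37 had an unadjusted p below 0.05, beside 16.6% of all tested genes. The genotypes did not overlap in 25.4% of the linked genes, beside 21.9% of all tested genes. The median log2 fold change was 0.07, beside 0.00 over all tested genes. The 3 were Vsig4, Cd163 and Gata6, and since the lists were chosen with earlier results of these data known, they are no independent evidence on them.

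Among macrophage genes linked to Maf, 2 surface receptors of resident macrophages fell, while Maf did not pass the test. Of 12 tested genes, 2 were lower, 0 were higher and the median log2 fold change was 0.11. Vsig4, a complement receptor, was at 3.86, 5.07 and 3.93 FPKM in the wild types and at 1.16, 1.06 and 1.01 FPKM in the knockouts. It fell by 1.98 on the log2 scale (adjusted p = 0.0142, edgeR). Cd163, the receptor for haemoglobin bound to haptoglobin, was at 12.6, 14.7 and 12.6 FPKM in the wild types and at 8.49, 8.26 and 6.97 FPKM in the knockouts. It fell by 0.74 (adjusted p = 0.0486). For both genes every knockout lay well below every wild type. Folr2, a folate receptor of resident macrophages, lay the other way at 3.29, 3.52 and 3.24 FPKM in wild types and 5.78, 7.49 and 6.00 FPKM in knockouts, and it did not pass (log2 fold change 0.94, adjusted p = 0.0619). Il10, the anti-inflammatory cytokine, and Gas6, a ligand that helps phagocytes bind dying cells, had log2 fold changes of 0.81 and 0.50 with no overlap and an adjusted p of 0.163 each. With the library set as a covariate the log2 fold changes were -1.89 for Vsig4 (adjusted p = 0.230) and -0.65 for Cd163 (adjusted p = 0.564), and without knockout B they were -1.98 (adjusted p = 0.0922) and -0.78 (adjusted p = 0.240). Vsig4 also missed the threshold without knockout C (adjusted p = 0.0973), and Cd163 without WT 1, knockout A or knockout C (0.112, 0.0717 and 0.109) and in limma on log2(FPKM + 1) (0.0839).

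Of the 12 tested genes linked to Spic, Cd163 alone was lower and 0 were higher, with a median log2 fold change of 0.08. Hmox1, which breaks down haem, did not pass and was at 366 ± 14.8 FPKM in wild types and 391 ± 4.62 FPKM in knockouts (SD, n = 3; adjusted p = 0.391, edgeR). Siglec1, a sialic acid receptor of resident macrophages, lay higher in every knockout, with a log2 fold change of 0.40 (adjusted p = 0.115). Siglec1 and Cd163, both surface genes of resident macrophages, thus had differences of opposite sign, a contrast that was not tested.

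Of the 14 tested genes linked to LXR, 0 passed, 12 had positive log2 fold changes and the median was 0.12. The genotypes did not overlap in 6 of them, 5 higher and 1 lower in knockouts, beside 11.5% and 10.4% of all tested genes. Abcg1, a sterol exporter and direct LXR target, was at 3.86, 3.13 and 5.49 FPKM in the wild types and at 7.09, 7.87 and 6.73 FPKM in the knockouts, a log2 fold change of 0.80 (adjusted p = 0.146, edgeR). Cd5l, a secreted macrophage protein that LXR induces, was at 73.8, 75.2 and 145 FPKM in wild types and at 203, 310 and 215 FPKM in knockouts, a log2 fold change of 1.32 (adjusted p = 0.136). Pltp, which transfers phospholipid between lipoproteins, had 0.46 (adjusted p = 0.161). Knockouts exceeded all wild types in these 3 genes. Scd1, a desaturase of fatty acids, was at 125, 38 and 120 FPKM in the wild types and at 242, 202 and 151 FPKM in the knockouts, with WT 2 far below the rest (log2 fold change 1.07, adjusted p = 0.246). Lpl, the lipoprotein lipase gene, which stands among the adipocyte markers too, also lay higher in every knockout (log2 fold change 0.94, adjusted p = 0.170). Arl4c, a small GTPase gene, lay the other way, at 14.8, 23.2 and 14 FPKM in the wild types and 11.4, 10.9 and 10.9 FPKM in the knockouts (log2 fold change -0.64, adjusted p = 0.166). Abca1, the exporter to lipid-poor apolipoprotein, had a log2 fold change of 0.21 and Srebf1, the regulator of fatty acid synthesis, had 0.08, and both overlapped between genotypes. Apoe, the most abundant gene of this list, was at 4315 ± 264 FPKM in wild types and 4788 ± 368 FPKM in knockouts (SD, n = 3; adjusted p = 0.465, edgeR). The 7 tested partners of LXR had 0 calls and a median of 0.06; the shared partner Rxra was at 28.1 ± 0.838 and 28.3 ± 0.919 FPKM in wild types and knockouts.

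Of 20 tested PU.1-linked genes, 0 passed and the median log2 fold change was 0.06. Lyz2, the lysozyme gene of myeloid cells, was at 4336 ± 379 FPKM in wild types and 4044 ± 215 FPKM in knockouts, and Fcer1g, the signalling chain of Fc receptors, at 797 ± 8.11 and 798 ± 21.8 FPKM (SD, n = 3). Ctss, a lysosomal protease of antigen-presenting cells, had a log2 fold change of 0.28 with no overlap (adjusted p = 0.159, edgeR). Cd68, a lysosomal protein of macrophages, and Csf2rb, the beta chain of the GM-CSF receptor, had 0.14 and -0.20 with no overlap either. Of 14 listed Irf8-linked genes, 9 were tested, 0 passed and the median was 0.57. The gene at the median, the monocyte receptor gene Ccr2, was at 2.56, 2.28 and 5.53 FPKM in the wild types and 1.44, 7.87 and 6.11 FPKM in the knockouts, so WT 3 and knockouts B and C were high and knockout A was lowest (adjusted p = 0.651, edgeR). Cst3, a protease inhibitor high in dendritic cells, had 0.30 (adjusted p = 0.180) and Naaa, a lysosomal amidase, 0.62 (adjusted p = 0.101), both higher in every knockout. Cx3cr1, the fractalkine receptor of patrolling monocytes and resident macrophages, was at 8.88, 20.0 and 7.62 FPKM in the wild types and at 5.98, 3.42 and 2.82 FPKM in the knockouts (log2 fold change -1.57, adjusted p = 0.162). Xcr1 and Clec9a, which define one class of dendritic cell, had 15 counts or fewer in every library and were not tested.

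Genes linked to Cebpb and Klf4 had 0 calls in 8 tested each, with medians of -0.07 and -0.07. Trem1, a receptor that amplifies inflammation in myeloid cells, had a log2 fold change of -1.01 with no overlap (adjusted p = 0.159, edgeR), and Fabp4, a lipid carrier of adipocytes and macrophages, had 0.81 (adjusted p = 0.192). Cd14, which stands in both lists as a co-receptor for endotoxin, was at 35.6 ± 5.22 FPKM in wild types and 33.9 ± 3.19 FPKM in knockouts (SD, n = 3). Socs3, a feedback inhibitor of cytokine signalling, and Cdkn1a, a cell cycle inhibitor, had log2 fold changes of 0.05 and -0.08. Among 38 tested further transcription factors of myeloid cells, 1 was lower: Gata6, a factor of peritoneal macrophages and of heart and gut, fell by 1.21 on the log2 scale (adjusted p = 0.0490), from 0.681 ± 0.0533 FPKM to 0.293 ± 0.0239 FPKM (SD, n = 3). Without WT 1 its adjusted p was 0.134, without WT 2 it was 0.0517, and without knockout A, B or C it was 0.0986, 0.254 and 0.155. With the library set as a covariate it was 0.551, with a filter of at least 1 CPM 0.0541, and in limma on log2(FPKM + 1) 0.0802. Pparg, the nuclear receptor of fat cells and of alveolar macrophages, had 0.65 (adjusted p = 0.146), and Egr1 and Ets1 had -0.17 and 0.16, each with no overlap. The 9 tested genes of Id proteins and their partners had 0 calls and a median of 0.02.

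**Figure D4:**
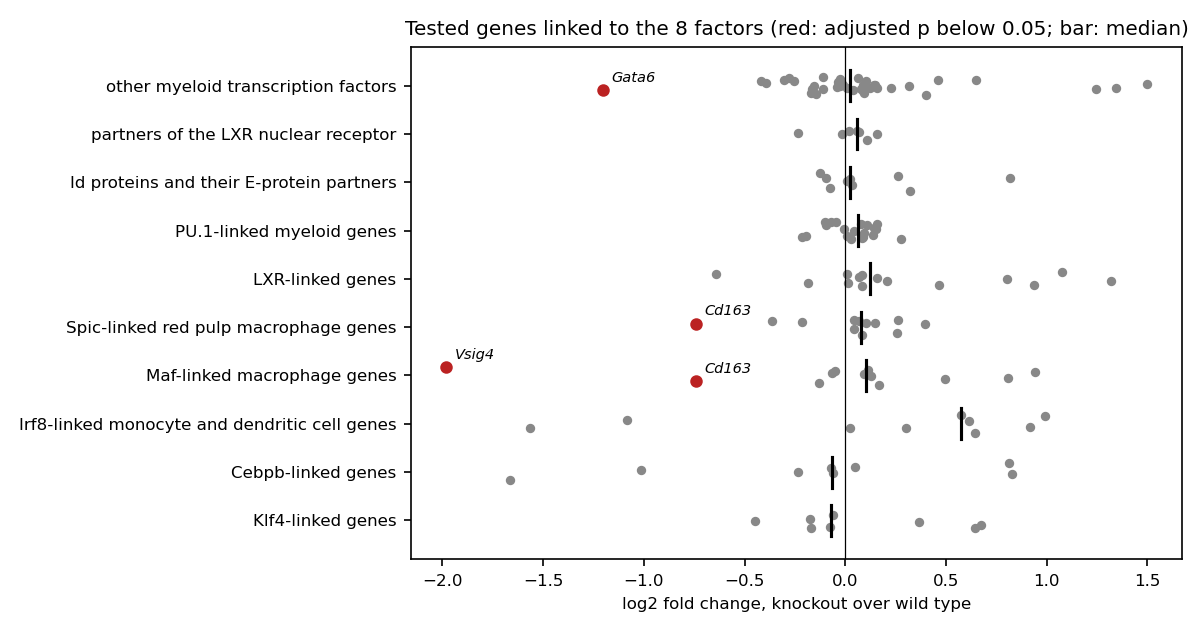
Log2 fold change of knockout over wild type (horizontal axis) for each tested gene in the 10 linked lists (rows), with black bars at list medians and red points for adjusted p below 0.05. The red points are Gata6, Vsig4 and Cd163, the last of which stands in 2 lists, and all lie to the left of 0.

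Profiles most like those of the members were sought by the root mean square difference of centred log2 CPM over the 6 libraries, among 10707 genes with a mean of at least 5 CPM. For Nr1h3 these were Rgs3 and Ggt5, at differences of 0.05 and 0.05, where Nr1h3 itself varied by 0.37 about its mean. Rgs3, a regulator of G-protein signalling, was at 51.7, 31.1 and 51.1 CPM in the wild types and at 57.2, 67.5 and 58.9 CPM in the knockouts, with WT 2 lowest and knockout B highest as for Nr1h3. For Id3 they were Sgce and Gulp1, for Klf4 Armc6, for Irf8 Card6 and Yae1d1, for Cebpb Oser1 and Nfyc, for Spi1 Slc9a7 and Rsrc1 and for Maf Tshz1 and Gigyf1, at differences of 0.01 to 0.04. For Spic the nearest were Rnase6 and Ceacam1 at 0.16 and 0.17, beside a spread of 0.33 for Spic. With 6 libraries and 10707 candidates, close profiles arise easily for genes that vary little.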

How the data were processed

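RNA from marrow of wild-type and P2rx7 knockout mice was sequenced in 3 libraries per genotype. Per the labels' protocols the RNA was purified with a Qiagen RNeasy kit and made into libraries with a SMARTer mRNA kit. Per the submitters' processing notes the builds were GRCm38 and mm10. Not given in the sources used here are the aligner, the counter, the annotation and the use of strand. Raw counts and FPKM values per gene were taken as the authors deposited them, in 1 table. The deposited FPKM equals the count divided by summed exon length (the length column is in other units, bases) and by an effective library size of 0.982 to 1.02 times the column total. Gene spans of the 8 genes equalled those of GENCODE M21.

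Counts were tested with edgeR 4.0.16 in R 4.3.3: filterByExpr (15478 of 55291 genes), TMM scaling, glmQLFit and glmQLFTest, two-sided, with Benjamini-Hochberg adjustment over all tested genes. Standard errors and 95% intervals are those implied by that test. Log2 CPM used a prior count of 2. The fit was also run on simulated independent counts, which held no library sets, so that run cannot speak to their effect. DESeq2 1.42.0 and limma 3.58.1 were among 16 alternatives. The members, gene lists and tests were chosen with earlier results of these data known. Named genes were the members, P2rx7, genes that share exons with a member, from each linked list up to 4 called genes or else the 3 of highest FPKM, up to 3 more of smallest p whose genotypes did not overlap, and for each member the 2 nearest profiles. Named after their values were seen were the relatives, Madd, Abca1, Srebf1, Arl4c, Gfi1, Xcr1, Clec9a and the trace and marker genes. Some genes that the rule names are not reported here. The labels give 3 numbered or lettered libraries per genotype, each taken as a different mouse and as a replicate. Exact Poisson intervals cover counting error only.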

Additional observations from a re-analysis of the deposited data

How the results depend on the processing

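None of the 8 factors was called under 15 of 16 alternatives. When all genes with at least 1 count were tested, 2 were called, Nr1h3 and Id3, beside 970 of 30301 genes. Of 128 values of single factors, 121 kept direction and side of the threshold and 5 changed sign: Spi1 to -0.01 without WT 2 and -0.022 without knockout B, Maf to -0.020 without WT 2 and -0.01 without knockout A, and Spic to 0.041 without knockout A. Leaving out 1 mouse, Spi1 ranged from -0.022 to 0.076, Maf from -0.020 to 0.086 and Spic from -0.47 to 0.041. Over all 16 alternatives Nr1h3 ranged from 0.31 to 0.64, Id3 from 0.13 to 0.40, Klf4 from -0.29 to -0.08, Irf8 from 0.09 to 0.26 and Cebpb from -0.21 to -0.09. Of all tested genes 16 were called; this became 970 with all genes that had at least 1 count, 496 by DESeq2, 10 by limma on log2(FPKM + 1), 2 by limma on log2(FPKM + 0.1), 0 with the library set as a covariate and 0 among the 4 libraries with Gh counts (894 and 668 at an unadjusted p below 0.05, edgeR). Linked genes called were 3, and under the same alternatives 25, 15, 1, 1, 0 and 0. Leaving out 1 mouse gave 0 to 172 genes and 0 to 9 linked genes: both were 0 without knockout B or C (1468 and 1772 genes at an unadjusted p below 0.05, edgeR), and highest without WT 3. Without WT 1, WT 2 or knockout A there were 5, 45 and 8 genes and 1, 3 and 1 linked genes. The cause of these shifts was not tested. No paired analysis was possible because numbers name the wild types and letters name the knockouts. Counting error (1 over the square root of the count) was 8.74 to 12.2% per library for Spic and lower for the other factors, so depth limits Spic most.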

Other observations

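Genes of granulocyte precursors varied far more between mice than the 8 factors did, in a pattern that did not follow genotype. Elane, the neutrophil elastase gene, was at 6.63, 2.55 and 25.3 FPKM in the wild types and at 6.24, 54.1 and 35.6 FPKM in the knockouts. Knockout A lay with WT 1 and 2, and WT 3 lay between them and knockouts B and C. Knockouts B and C are the libraries without Gh counts. The highest library exceeded the lowest 21.2-fold for Elane and 16.6-fold for the myeloperoxidase gene Mpo, beside 1.14-fold for Spi1, which precursors and macrophages both express. Cebpe, the C/EBP factor of late granulocytes, had 13, 4 and 29 counts in the wild types and 3, 30 and 24 counts in the knockouts, so WT 2 and knockout A were lowest. Myeloid factors of low count outside the 8 thus varied widely too, 11.7-fold for Cebpe and 24.0-fold for Gfi1 at 3 to 59 counts.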
